A study of Mus musculus with 6 samples.

Results

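GIMAP proteins (GTPases of immunity-associated proteins) are a family of GTP-binding proteins made mainly by lymphocytes, where several members sit on intracellular membranes and are tied to the survival and quiescence of T and B cells. The family was defined here by symbol, and the 8 rows Gimap1, Gimap3, Gimap4, Gimap5, Gimap6, Gimap7, Gimap8 and Gimap9 were found among the 24421 genes of the count table. RNA-seq libraries had been made from splenic CD4+YFP+ regulatory T (Treg) cells of female C57BL/6 mice aged 8 to 11 weeks, with 1 library for each mouse: 3 mice were Foxp3Cre (WT), and 3 were Foxp3Cre miR-142fl/fl (KO). Both groups carried Cre-YFP under the control of Foxp3, so that YFP marked the sorted cells in WT as well as in KO, and the floxed miR-142 gene was open to deletion in cells in which Foxp3 had driven Cre. The question asked of the members was which of them differed between miR-142-deficient and miR-142-sufficient Treg cells.

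miR-142 is a microRNA of blood cells that lowers the level of mRNAs whose 3′ UTR pairs with its seed, the bases near its 5′ end. Its hairpin gives a 3p and a 5p strand, and the 3p strand is also known with a start shifted by a base, which moves the seed. Among the GIMAP proteins, GIMAP5 and GIMAP1 are needed for the persistence of mature lymphocytes, GIMAP4 is tied to the pace of T-cell death and binds calmodulin, GIMAP6 binds an autophagy protein of the GABARAP family, and GIMAP3 is the closest relative of GIMAP5 in the mouse.

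Total counts ranged from 13883069 to 24042994 per library. Levels are given as normalised CPM, counts brought to a common library size with the TMM method, and a count of 3 corresponded to between 0.123 and 0.227 CPM. Mir142b, which overlaps the targeted gene on the opposite strand, had 9.05, 4.14 and 5.81 CPM in the WT libraries, by replicate number, and 0.389, 0.379 and 0.342 CPM in the KO libraries. All 8 marker genes of Treg cells, among them Foxp3 and Cd3e, were above 1 CPM in every library. Their summed levels were 5646 to 6278 CPM in WT and 7259 to 8258 CPM in KO. Of these 8 genes, only Il2ra was called higher in KO, with means of 756 CPM in WT and 2578 CPM in KO. The other 7 were not called, with Foxp3 at a log2 fold change of 0.28 and Cd3e at -0.20. KO replicate 1 stood apart: its 11 measured neutrophil genes summed to 916 CPM and its 12 monocyte and macrophage genes to 2554 CPM, against at most 1.29 and 9.68 CPM in the WT libraries. KO replicates 2 and 3 had smaller sums, 7.72 and 40.9 CPM for the neutrophil genes and 45.7 and 8.49 CPM for the monocyte and macrophage genes, of which 10 were above 1 CPM in KO replicate 2 and 1 in each WT library. Of the neutrophil genes, Mpo (FDR = 0.00633) and Elane (FDR = 0.010) passed the filter and were called higher in KO in edgeR's quasi-likelihood test. The fitted change of every member is also given without KO replicate 1.

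The 8 genes lay side by side on chromosome 6 (GRCm38, the build named mm10) between 48647234 and 48770851. Their order was Gimap8 (48647234 to 48660875), Gimap9 (48676129 to 48679114), Gimap4 (48684549 to 48692060), Gimap6 (48701582 to 48708225), Gimap7 (48718621 to 48724636), Gimap1 (48739054 to 48743795), Gimap5 (48746197 to 48754210) and Gimap3 (48764464 to 48770851). Gimap6 and Gimap3 are annotated on the minus strand and the others on the plus strand. All 8 are annotated as protein-coding.

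Since miR-142 was the deleted gene, the letters of its seeds are shown with the members whose 3′ UTR holds a match to them. The mature strands, from RefSeq (GRCm38.p6), are written 5′ to 3′ with the seed (bases 2 to 8) in capitals.
mmu-miR-142a-3p: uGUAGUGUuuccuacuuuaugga
mmu-miR-142a-5p: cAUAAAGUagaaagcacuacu
The 3p seed pairs with ACACTAC or CACTACA, the 3p seed shifted by a base (bases 3 to 9) with AACACTA or ACACTAA, and the 5p seed with ACTTTAT or CTTTATA, read on the strand of the mRNA. Of the 8 members, Gimap4 was the 1 with letters for the 3p seed in its longest annotated 3′ UTR (GENCODE vM21), Gimap8 the 1 for the shifted seed, and Gimap6 and Gimap8 the 2 for the 5p seed. The other 5 members, Gimap1, Gimap3, Gimap5, Gimap7 and Gimap9, held none in their longest 3′ UTR. In Gimap9 a match for 5p lay in its shorter UTR. Below are windows of 30 bases of each mRNA strand, with the match in capitals.
Gimap4, 3p seed, chr6:48691974-48691980, plus strand: gtagccagaacCACTACAtatccaatcatg
Gimap8, shifted 3p seed, chr6:48659336-48659342, plus strand: caattaaaatcAACACTAggccaaattact
Gimap8, 5p seed, chr6:48660809-48660815, plus strand: gtatttgtattCTTTATAgccactctgatt
Gimap6, 5p seed, chr6:48704253-48704259, minus strand: aaggggctcttCTTTATAccaggaagaacc
Gimap6, 5p seed, chr6:48703188-48703194, minus strand: tatcatttgccACTTTATgtgctttcagtc
Gimap9, 5p seed, shorter UTR, chr6:48678989-48678995, plus strand: tctggtgggttCTTTATAatttgacatgat
Among the 10793 tested genes with an annotated 3′ UTR, 13.5% held letters for the 3p seed, 16.2% for the shifted seed and 24.0% for the 5p seed, while 61.0% held none. Each match in the GIMAP genes was 7 letters long, and a match is a run of letters, not a measured site. Only AACACTA in Gimap8 and ACTTTAT in Gimap6 complement a whole seed. The matches in Gimap4 and Gimap9, and the others in Gimap6 and Gimap8, end in the fixed A. The Gimap4 match lay in 3 of its 5 coding transcripts with an annotated 3′ UTR. Its longest 3′ UTR, which also holds the match, belongs to a further transcript annotated as a target of nonsense-mediated decay. Each match in Gimap6 and Gimap8 lay in 1 of 3 coding transcripts with a 3′ UTR, and that in Gimap9 in 1 of 2.

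In WT Treg cells the family was led by Gimap3 and Gimap4. Per kb of exon, the WT level was 624 ± 46.6 CPM for Gimap3 and 604 ± 40.2 CPM for Gimap4 (SD, n = 3), ranks 13 and 14 of 11237 tested genes with a known length. The libraries of this pair overlapped, so that their order was not set beyond the spread. Gimap6 followed with 279 ± 46.6 CPM per kb and then Gimap8 with 183 ± 9.06 CPM per kb. Gimap9 had 91.1 ± 4.84, Gimap1 72.5 ± 10.6 and Gimap7 64.3 ± 4.97 CPM per kb, and the libraries of Gimap1 and Gimap7 overlapped. Gimap5 was the lowest member at 27.1 ± 1.28 CPM per kb, rank 1813. In KO, Gimap4 had the highest level of the 8 at 860 ± 57.0 CPM per kb, followed by Gimap3 at 762 ± 83.6 CPM per kb. With the longest transcript in place of all exons, Gimap3 led in both groups, and Gimap9 moved from place 5 to place 7 in WT.

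Gimap4 rose in miR-142-deficient Treg cells, and it was the only member of the 8 that passed the test. Its normalised level, in the order of the replicate numbers, was 1163, 1139 and 1025 CPM for WT and 1633, 1459 and 1648 CPM for KO. The lowest KO library was thus higher than the highest WT library. The mean was 1109 ± 73.8 CPM for WT and 1579.8 ± 105 CPM for KO (SD, 3 libraries each), which the fit gave as a log2 fold change of 0.51 with a standard error (SE) of 0.10. This equals a 1.42-fold higher level with a 95% interval of 1.21 to 1.68, and an FDR of 0.0164 in edgeR's quasi-likelihood F (QLF) test with Benjamini-Hochberg adjustment over all 11658 genes tested. For 3 mice against 3 the exact two-sided permutation test gave p = 0.1, the smallest it can give.

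The call of Gimap4 depended on single libraries. The FDR was 0.0579 without WT replicate 1, 0.0715 without WT replicate 2, 0.0822 without WT replicate 3 and 0.0577 without KO replicate 3, while the log2 fold change stayed between 0.45 and 0.57 whichever library was left out. Without KO replicate 1, the library with the neutrophil and macrophage transcripts, the log2 fold change was 0.47 and the FDR 0.0275. Without KO replicate 2 the FDR was 0.0144. In bulk libraries, more transcripts per cell and a larger share of cells with a high level cannot be told apart. As a background, 18.8% of all genes tested were called in this comparison, 11.6% as higher (1350 genes) and 7.27% as lower (847 genes) in KO, and 1 of the 8 GIMAP genes called is close to the share called higher. Scaled by library size alone, the split over all genes was 1064 higher and 1201 lower, and with upper-quartile scaling 1086 higher and 1209 lower, with Gimap4 called in both. The ranges of KO and WT were apart in 41.0% of all genes tested, and among the members this held for Gimap4 alone. Gimap4 is also the member with the letters CACTACA for the 3p seed shown above, and whether these letters bear on its level was not tested.

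**Figure D1:**
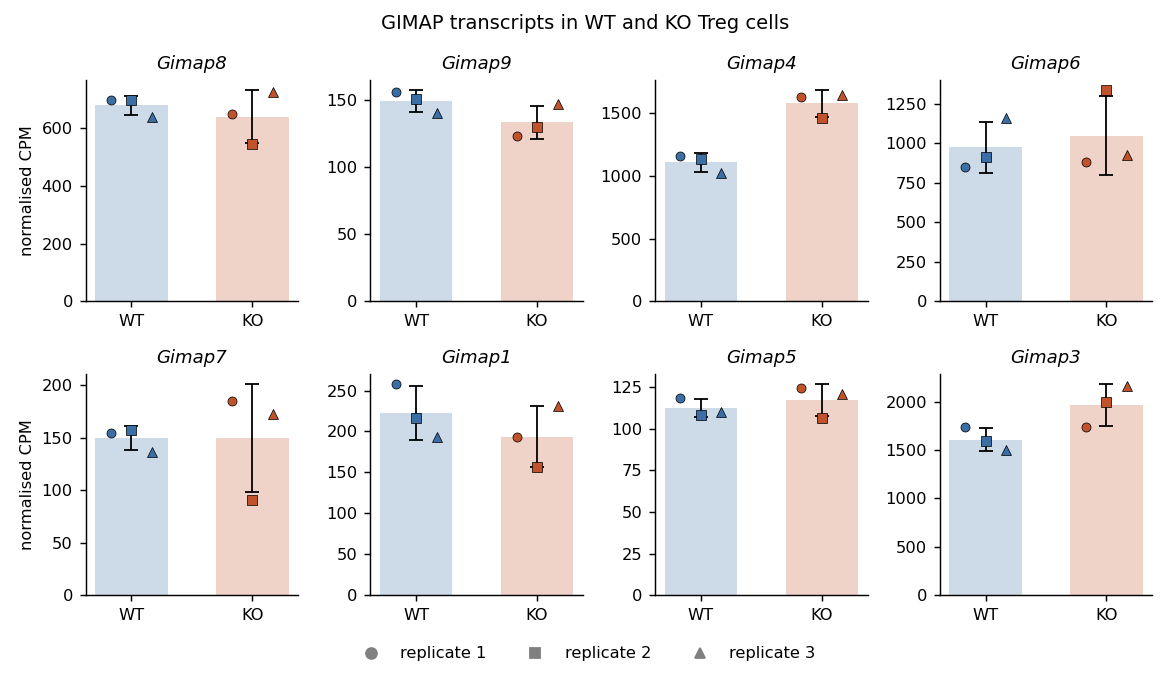
Normalised CPM (y axis, from 0, a separate scale for each gene) of the 8 GIMAP genes in WT (blue) and KO (orange) Treg cells. Points are libraries with a symbol for each replicate number, bars are means and error bars the SD of 3 libraries. Only for Gimap4 do all KO libraries, between 1459 and 1648 CPM, lie above all WT libraries, between 1025 and 1163 CPM.

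Gimap3, the other abundant member, did not pass the test. It had 1735, 1591 and 1497 CPM in the WT libraries, in replicate order, and 1735, 1997 and 2162 CPM in the KO libraries. KO replicate 1 was level with the highest WT library and the other KO libraries lay above it. The means were 1608 ± 120.05 and 1965 ± 215 CPM (SD), with a log2 fold change of 0.29 (SE 0.12, 95% interval 0.01 to 0.57). The unadjusted p of the QLF test was 0.0451 and the FDR 0.134. Over all alternatives its FDR lay between 0.0645 and 0.352 and its log2 fold change between 0.20 and 0.36, the largest being that without KO replicate 1 (FDR = 0.0645).

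Gimap5, the relative of Gimap3 that is tied to lymphocyte survival, had 118, 108 and 110.3 CPM in WT and 124, 106 and 121 CPM in KO. The groups overlapped, and the log2 fold change of 0.06 (SE 0.09, FDR = 0.673 in the QLF test) had an interval of -0.15 to 0.28, which excludes a change as large as that fitted for Gimap4. Without KO replicate 1 the log2 fold change was 0.0011 (FDR = 0.995). Gimap3 and Gimap5 shared 183 windows of 51 bases, the read length, which were 7.24% of the windows of Gimap3 and 4.36% of those of Gimap5. No other pair of members shared such a window in their annotated transcripts. Gimap3 had 14.7, 14.7 and 13.6 counts for each count of Gimap5 in the WT libraries and 13.9, 18.8 and 17.9 in the KO libraries, and these ranges overlapped.

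Gimap1, whose product mature B and T cells need, had 258, 217 and 193 CPM in WT and 193, 157 and 231 CPM in KO. The lowest WT and the middle KO library were level. Its log2 fold change was -0.20 (SE 0.16, 95% interval -0.59 to 0.19) with an FDR of 0.428 in the QLF test, and -0.21 without KO replicate 1 (FDR = 0.460). Its exons overlap the opposite-strand transcript Gimap1os over 1107 bases (36.0% of its exon length), and the exons of Gimap7, Gimap1 and Gimap5 overlap the annotated read-through gene Gm28053 over 81, 198 and 153 bases. Gm28053 lies on the same strand as these members, so strand could not separate its reads from theirs. Strand was not used in counting, so reads of Gimap1os could not be told from those of Gimap1 either. Neither Gm28053 nor Gimap1os has a row in the count table, and their part in the counts of the members was not tested.

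Gimap8, a large member with more than one GTP-binding domain, had 698, 698 and 640.0 CPM in WT and 648, 543 and 726 CPM in KO. KO replicates 2 and 3 lay on opposite sides of all WT libraries. The log2 fold change was -0.09 (SE 0.12, 95% interval -0.37 to 0.20) and the FDR 0.661, with a log2 fold change of -0.11 without KO replicate 1 (FDR = 0.623). Its neighbour Gimap9 had 156, 151 and 141 CPM in WT and 123, 130.1 and 147 CPM in KO, of which 1 KO library lay inside the WT range and the others under it. The log2 fold change of Gimap9 was -0.16 (SE 0.09, 95% interval -0.39 to 0.06) and its FDR 0.261 in the QLF test, and without KO replicate 1 they were -0.13 and 0.436.

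Gimap6, which is tied to autophagy, had 851, 913 and 1159 CPM in WT and 883, 1337 and 924 CPM in KO. A single library stood high in each group, WT replicate 3 and KO replicate 2, and the others lay between 851 and 924 CPM. The log2 fold change was 0.11 (SE 0.19, 95% interval -0.35 to 0.56, FDR = 0.735), and it turned to -0.10 without KO replicate 2, while it was 0.20 without KO replicate 1 (FDR = 0.507). Gimap7, which can raise the GTPase activity of other members, had 155, 158 and 136 CPM in WT and 185, 90.7 and 173 CPM in KO. KO replicate 2 fell well under every other library. The log2 fold change of Gimap7 was 0.00 (SE 0.25, 95% interval -0.58 to 0.58, FDR = 0.996). It was 0.27 without KO replicate 2 (FDR = 0.0869) and -0.20 without KO replicate 1 (FDR = 0.605).

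**Figure D2:**
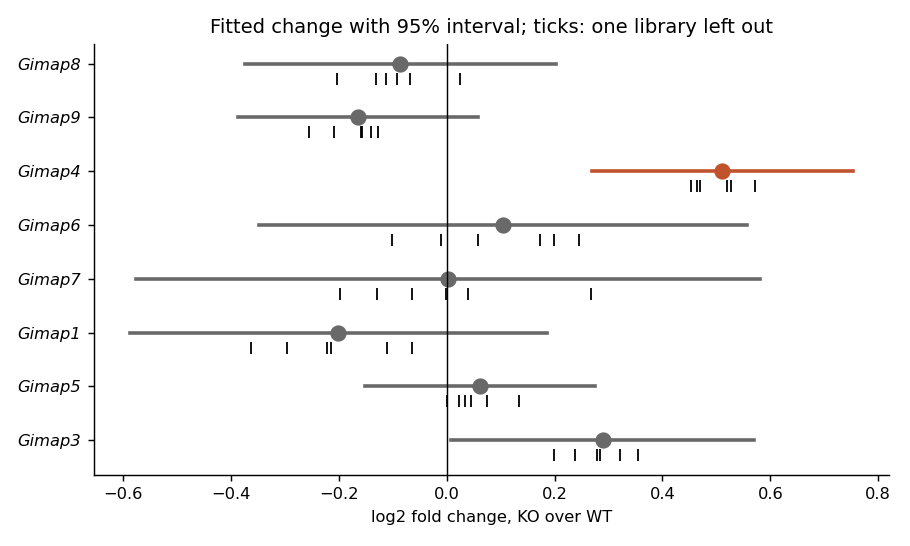
Log2 fold change of KO over WT (x axis) for each GIMAP gene, in order along chromosome 6. Points are fitted values, lines their 95% intervals and short ticks the values with each of the 6 libraries left out in turn. The interval of Gimap4, drawn in orange, runs from 0.27 to 0.75, that of Gimap3 starts at 0.01, and the intervals of the other 6 genes hold 0.

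For the family as a set, 1 gene was called higher and 0 lower at an FDR under 0.05 in edgeR's QLF test. At an unadjusted p under 0.05 the counts were 2 higher and 0 lower, and DESeq2 called 1 higher and 0 lower. The median log2 fold change of the 8 members was 0.03, beside 0.02 over all genes tested. Summed over the 8 members, the level was 5135, 4975 and 4902 CPM in WT and 5526, 5820.4 and 6133 CPM in KO. The KO libraries lay above the WT libraries, with means of 5004 ± 119 and 5826 ± 304 CPM (SD, n = 3, exact permutation p = 0.1, the smallest possible). As an unscaled share of all counts, the family took 0.498% to 0.538% in WT and 0.535% to 0.605% in KO, and these ranges overlapped (exact permutation p = 0.2). Without Gimap4 the summed levels were 3895 ± 69.5 CPM in WT and 4246 ± 312 CPM in KO, which also overlapped (exact permutation p = 0.2).

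The share of each member in the summed GIMAP counts does not depend on the scaling between libraries. The share of Gimap4 by replicate number was 22.6%, 22.9% and 20.9% for WT and 29.5%, 25.1% and 26.9% for KO. Each KO share lay above each WT share, with means of 22.1% ± 1.08 and 27.2% ± 2.25 (SD, n = 3). The difference of 5.01 percentage points was 3.82 without KO replicate 1. On the other side, the shares of Gimap8 (13.6% ± 0.485 in WT and 10.97% ± 1.42 in KO), Gimap9 (2.99% ± 0.0985 and 2.29% ± 0.0938) and Gimap1 (4.44% ± 0.544 and 3.32% ± 0.559) were smaller in every KO than in every WT library. The shares of a library sum to a whole, so a larger share of 1 member lowers the others. For each of these 4 genes the exact two-sided permutation p was 0.1, the smallest possible, and 0.2 after adjustment over the 8 members. The shares of Gimap3, Gimap6, Gimap7 and Gimap5 overlapped between the groups. In normalised CPM, a different measure, the ranges of KO and WT were apart in 41.0% of all genes tested, and 4 of 8 is close to that. Gimap4 gave 0.670, 0.716 and 0.685 counts for each count of Gimap3 in WT and 0.941, 0.731 and 0.762 in KO, a ratio chosen after the values were seen. Every KO ratio was above every WT ratio, and KO replicate 1 was the farthest from WT.

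**Figure D3:**
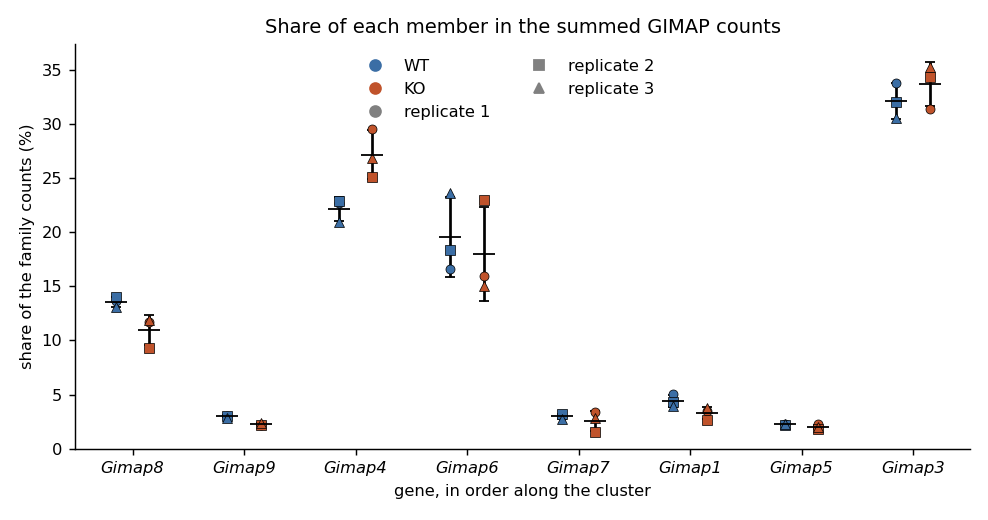
Share of each member in the summed counts of the 8 GIMAP genes (y axis, percent) in WT (blue) and KO (orange) libraries, with a symbol for each replicate number, the mean as a horizontal line and the SD of 3 libraries as error bars. The Gimap4 shares of KO, 25.1% to 29.5%, lie above those of WT, 20.9% to 22.9%, while the Gimap6 shares spread widely in both groups.

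Within groups the members did not all vary together. KO replicate 2 was the lowest KO library for 5 members (Gimap8, Gimap4, Gimap7, Gimap1 and Gimap5), yet it was the highest for Gimap6. Likewise, WT replicate 3 was the lowest WT library for 6 members and the highest for Gimap6. Against the WT mean, KO replicate 2 stood at -0.72 on the log2 scale for Gimap7 and at 0.46 for Gimap6. Gimap6 gave 1.22, 1.31 and 1.81 counts for each count of Gimap8 in the WT libraries, and 1.36, 2.46 and 1.27 in the KO libraries, a ratio chosen after the values were seen. The coefficient of variation among KO libraries was 34.4% for Gimap7 and 23.9% for Gimap6, beside a median of 10.5% over the 2255 genes at least as high as the lowest member. Counts behind the members ranged from 1198 to 38806 per library, so that counting error was at most 2.89% of a value.

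**Figure D4:**
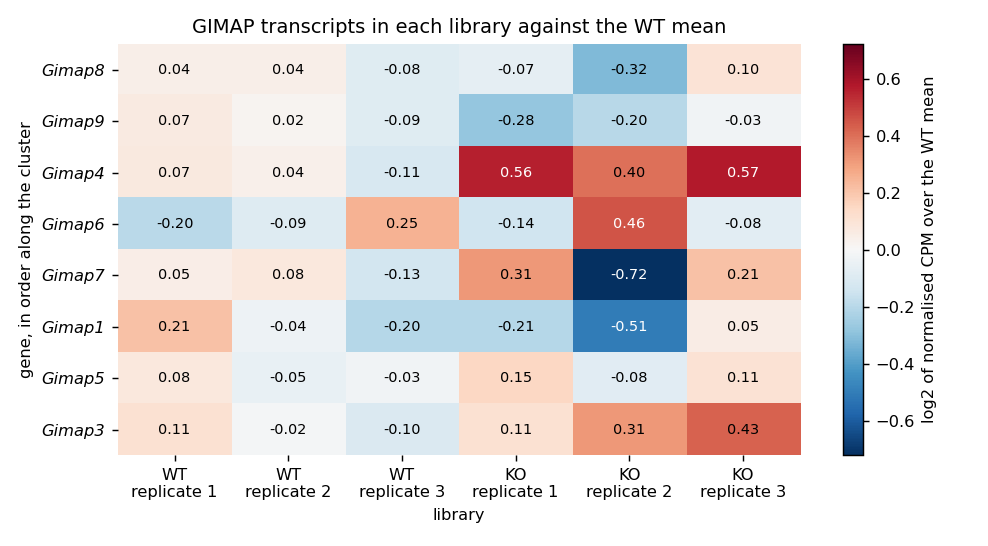
Log2 ratio of each library to the WT mean (colour, with the value printed in each cell) for the 8 GIMAP genes in order along chromosome 6 (rows) in the 6 libraries (columns). Gimap4 is at 0.56, 0.40 and 0.57 in KO replicates 1 to 3, and in WT replicate 3 and KO replicate 2 Gimap6 is raised where Gimap8, Gimap7 and Gimap1 are low.

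The 5 genes whose log2 levels followed the mean of the standardised GIMAP levels most closely over the 6 libraries were Pdf, Tmem208, Ruvbl2, Lsm2 and Glod4, with Pearson's r between 0.975 and 0.991. These are the highest of all genes tested over 6 points and are given as a description. The members themselves had an r between 0.41 and 0.81 with that mean, apart from Gimap6 with -0.76. Each member is part of that mean, so a positive r is in part built in.

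The neighbours of the GIMAP cluster were read in the same fit. Of 52 genes annotated within 500 kb of its ends, 23 were matched to a row of the table and 14 were tested. Among these, 4 were higher and 2 lower in KO, beside the 11.6% and 7.27% of all genes tested, and their median log2 fold change was -0.05. The nearest tested gene on the Gimap8 side, AI854703 at 13.5 kb, was at 4.48 ± 0.960 CPM for WT and 4.48 ± 0.794 CPM for KO (log2 fold change 0.00). On the Gimap3 side the nearest was Tmem176b at 63.0 kb, which encodes a membrane protein of immune cells. It rose from 3.65 ± 0.631 to 103 ± 18.0 CPM (SD of 3 libraries), with a log2 fold change of 4.83 (SE 0.19). Its partner Tmem176a rose from 2.13 ± 0.612 to 55.5 ± 9.15 CPM (log2 fold change 4.71).

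Further out, Igf2bp3, an RNA-binding protein of fetal tissues, rose from 4.56 ± 1.20 to 44.6 ± 9.43 CPM (log2 fold change 3.28). Gpnmb, a glycoprotein well known from macrophages, rose from 1.46 ± 0.452 to 6.30 ± 2.90 CPM (log2 fold change 2.10, FDR = 0.0141 in the QLF test), and was highest at 9.60 CPM in KO replicate 1. On the other side, Sspo fell from 15.6 ± 2.18 to 5.33 ± 1.06 CPM (log2 fold change -1.55, FDR = 0.00413). The transcribed pseudogene Zfp862-ps fell from 55.3 ± 6.95 to 33.2 ± 6.77 CPM (log2 fold change -0.73, FDR = 0.0248). Zfp862-ps was no longer called without WT replicate 1 (FDR = 0.0779), WT replicate 2 (0.0893) or WT replicate 3 (0.0516), and Gpnmb was not called without WT replicate 2 (0.0575) or WT replicate 3 (0.0568). All 6 calls held without KO replicate 1.

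**Figure D5:**
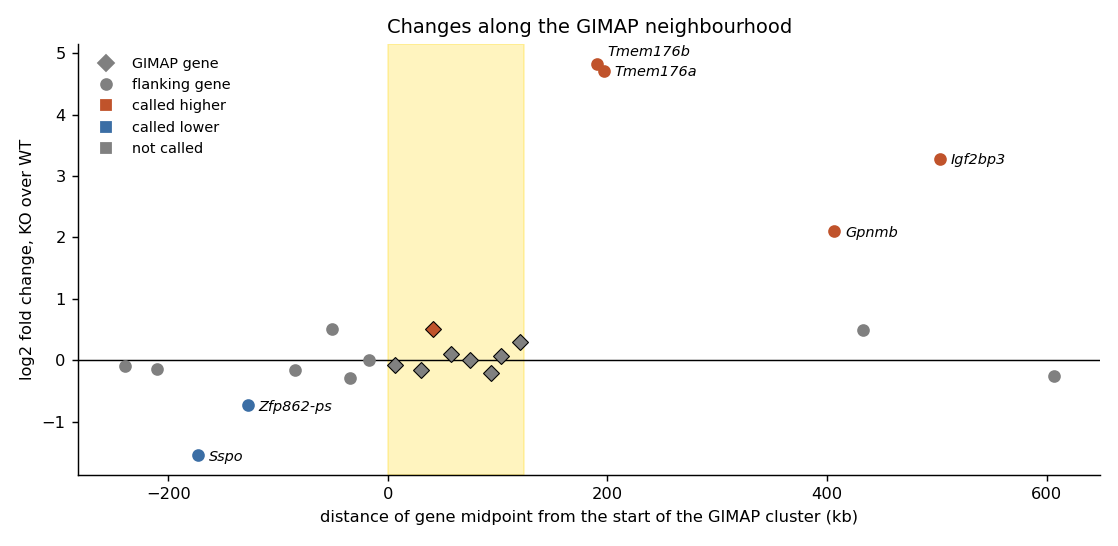
Log2 fold change of KO over WT (y axis) against the distance of each gene's midpoint from the start of the GIMAP cluster in kb (x axis). Diamonds are the 8 GIMAP genes, circles the 14 tested genes within 500 kb, and the shaded band is the cluster. Tmem176b and Tmem176a reach 4.83 and 4.71, while the GIMAP genes lie between -0.20 and 0.51.

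Another group of GTPases of the immune system gave a different count. Of 17 tested members of the interferon-inducible GBP and IRG families, which attack the vacuoles of intracellular microbes, 11 were higher and 0 lower in KO in the QLF test, beside 11.6% and 7.27% of all genes tested, with a median log2 fold change of 0.71. Gbp3 rose from 86.4 ± 9.80 to 315 ± 57.1 CPM (log2 fold change 1.87), Gbp4 from 367 ± 33.9 to 756 ± 34.9 CPM (1.04), Gbp2 from 129 ± 15.8 to 522 ± 154 CPM (2.02) and Gbp5 from 102 ± 10.2 to 221 ± 43.6 CPM (1.12). Without KO replicate 1, 10 of the 17 were called higher, beside 1107 of all 11429 genes tested in that fit. The difference between this family and the GIMAP genes was not tested.

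Of 20 genes whose products have been tied to GIMAP proteins, of the GABARAP and LC3, BCL2, FOXO and calmodulin families with Gsk3b and Vti1b, 1 was higher and 0 lower, and the median log2 fold change was 0.12. Over all genes tested 11.6% were called higher and 7.27% lower, so that the count says nothing particular about this list. The 1 called gene was Bcl2l1, which encodes the survival protein BCL-XL and rose from 52.1 ± 5.06 to 81.3 ± 10.7 CPM (log2 fold change 0.64, FDR = 0.0152 in the QLF test). Foxo4 (log2 fold change 0.40, FDR = 0.0567), Map1lc3a (0.78, FDR = 0.0950) and Foxo1 (-0.37, FDR = 0.132) followed by p-value and were not called. Without KO replicate 1, 2 of the 20 were called higher, beside 1107 of all 11429 genes tested in that fit.

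Of 16 genes of lymphocyte quiescence and recirculation, 1 was higher and 0 lower, with a median log2 fold change of -0.04, a count not set apart from the 11.6% and 7.27% of all genes tested. Satb1, an organiser of chromatin in T cells, rose from 412 ± 59.3 to 689.8 ± 156 CPM (log2 fold change 0.74, FDR = 0.0303 in the QLF test). Txnip (1.20, FDR = 0.0546), Tcf7 (-0.84, FDR = 0.0686) and Il7r (0.70, FDR = 0.10) were not called. Without KO replicate 1, 4 of the 16 were called higher and 0 lower. Over all 11429 genes tested in that fit, 1107 were called higher and 868 lower. Of 16 genes of activated or effector Treg cells, 8 were higher and 0 lower, beside the same shares of all genes, with a median log2 fold change of 0.66, among them Itgae (2.18), Klrg1 (2.49), Tnfrsf9 (0.99) and Gzmb (3.42). Without KO replicate 1 these counts were 8 higher and 1 lower, beside the same 1107 and 868 of all 11429 genes.

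Markers of other cells moved with the groups in part. The 8 genes of CD8 and NK cells summed to 31.1 to 40.0 CPM in WT, and to 243, 111 and 105 CPM in KO replicates 1, 2 and 3. Of the 4 that were tested, Eomes and Nkg7 were called higher, Klrb1c was called lower (log2 fold change -1.97, FDR = 0.0308 in the QLF test), and Cd8b1 was not called (0.12, FDR = 0.695). The 9 B-cell genes summed to 30.6 to 41.9 CPM in WT and to 319, 9.31 and 12.9 CPM in KO. The 9 endothelial genes had low sums, of 0.332 to 0.533 CPM in WT and of 8.38, 1.59 and 3.49 CPM in KO. Lymphocytes of other kinds also make GIMAP transcripts, and their part in the GIMAP levels was not tested.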

How the data were processed

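Total RNA of sorted splenic Treg cells was sequenced as 51-base single-end reads. Per the methods of the study, the authors aligned reads with HISAT to mm10 and counted them on genes with featureCounts without regard to strand, with versions not given in the sources used here. The deposited table holds raw counts of 24421 genes, with 1 column for each of the 6 libraries.

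A gene was kept where at least 3 libraries held over 1 CPM of it (11658 genes), library sizes were recomputed and normalised with TMM, and KO was compared with WT by the QLF test of edgeR 4.0.16 in R 4.3.3, with an FDR threshold of 0.05. DESeq2 1.42.0 served as an alternative. SEs were taken from the log2 fold change and its F statistic. Permutation tests were exact and two-sided over the 6 libraries, on log2 of CPM plus 0.5 for single genes. For the shares and the family sums they used the percentages and summed CPM without a log. Steps were tested on simulated counts. All replicate pairs differed by more than sampling noise.

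Positions, exon lengths and 3′ UTRs came from GENCODE vM21, and miRNA sequences from RefSeq. Shared 51-base windows were searched in annotated transcripts, not in the whole genome. Same-numbered WT and KO libraries did not deviate together (r of 0.07, -0.01 and -0.19), so numbers were not taken as pairs. The members and gene lists were chosen with earlier results of these data known. All members were named, with tested flanking genes nearest the cluster or called, up to 4 genes of each other list by smallest p, and the 5 genes closest to the mean GIMAP profile. Counting without the library with other cells' transcripts was added for the other lists after seeing the data.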

Additional observations from a re-analysis of the deposited data

How the results depend on the processing

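Across 16 alternatives (normalisation, filters, tests, a stricter threshold, a replicate block and leaving out each library), 0 GIMAP genes were called lower, and 1 was called higher except at an FDR under 0.01 (0 genes) and in leave-one-out fits (0 to 1). The median log2 fold change of the members ranged from -0.06 to 0.08. When a library was left out, the log2 fold change of Gimap8 ran from -0.20 to 0.024, above 0 only without KO replicate 2, and that of Gimap6 from -0.10 to 0.25, under 0 without WT replicate 1 or KO replicate 2. Gimap7, fitted at 0.00, was -0.0056 with RLE size factors, -0.0699 with library size alone, -0.0709 with upper-quartile scaling, -0.0182 with no filter, -0.00089 with filterByExpr, -0.0180 with DESeq2, -0.0581 with the replicate block and between -0.20 and 0.27 when a library was left out. Gimap5 was -0.0155 with library size alone and -0.0145 with upper-quartile scaling. Of these, 0 passed the test. The KO minus WT share ran from -4.00 to 0.54 points for Gimap6, above 0 only without WT replicate 3, and from -0.80 to 0.10 points for Gimap7, above 0 only without KO replicate 2. Causes were not tested.

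Flanking genes called lower numbered 1 at an FDR under 0.01 and 1 to 2 in leave-one-out fits. Over all genes, an FDR under 0.01 left 490 higher and 196 lower, DESeq2 called 1803 and 1238, and leave-one-out fits gave 483 to 1403 higher and 208 to 937 lower, the fewest without WT replicate 2. The 4 fits in which Gimap4 lost its call made 691 to 1511 calls over all genes, the other 2 made 1975 and 2340. The replicate block gave 1061 higher and 545 lower genes, and Gimap4 kept its call (FDR = 0.0438). With the longest transcript as length, WT levels per kb were 749 for Gimap3, 615 for Gimap4, 306 for Gimap6, 215 for Gimap8, 138 for Gimap1, 118 for Gimap7, 108 for Gimap9 and 48.3 for Gimap5. With 3 mice per group, the 95% intervals of the 7 members not called lay between -0.59 and 0.58 in log2 fold change, and values inside each gene's own interval cannot be set apart.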
